A study of Mus musculus with 2 samples.

Results

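Cycling Eomes intermediate progenitors of the mouse dentate gyrus were picked out of 2 single-cell RNA sequencing libraries by the counts of a few genes. A cell was kept with at least 1000 unique molecular identifiers (UMIs, each standing for 1 captured RNA molecule), at least 500 genes and at most 10% mitochondrial UMIs. It was a cycling Eomes cell if it had at least 1 UMI of Eomes and at least 2 UMIs of Mki67 and Top2a together, with at most 1 UMI of Reln and none of Olig2. Of 21370 kept cells, 929 met this rule: 299 of 9956 in the Setdb1_cKO library and 630 of 11414 in the control library. The Setdb1_cKO group is a conditional knockout of Setdb1 and the control group is wild type, and both are dentate gyrus cells of postnatal day 5, dissociated with an enzyme kit and run as 1 10x Genomics library each. The labels used here do not state the driver of the knockout, the deleted exons, the mouse strain or the number of animals pooled. With 1 library per genotype no test between genotypes was possible, every difference below is a difference between these libraries, and intervals (95%) cover counting error only.

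In the dentate gyrus, radial glia divide to give intermediate progenitors, which carry the T-box transcription factor Eomes (Tbr2), divide for a limited time and give rise to neuroblasts and then granule neurons. Proneural factors such as Neurog2 act upstream in this series of steps, and Neurod1, Prox1 and the neuroblast genes mark the later ones. Setdb1 encodes a methyltransferase that places trimethylation on histone H3 lysine 9 (H3K9me3), a mark of silent chromatin, and in mouse cells it is known for the silencing of germline genes, of endogenous retroviruses and of clustered protocadherin genes.

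The cells had the genes of the name they were given. Outside the rule's own genes, all 9 proliferation markers were higher in cycling Eomes cells than in the other kept cells of both libraries, from 3.95 times for Pcna to 15 times for Tpx2 in Setdb1_cKO and from 3.19 times for Pcna to 8.39 times for Ube2c in control. Of the 11 further markers of intermediate progenitors, 10 were higher than in the other kept cells. Insm1, a zinc finger factor of delaminating progenitors, was 8.40 times as high in Setdb1_cKO and 9.60 times in control, Neurog2 11.1 and 8.10 times, and Neurod4 9.53 and 7.18 times. The exception was Neurod1, at 0.598 and 0.586 times the level of the other kept cells, among which are neuroblasts. Radial glia genes stood at 38.6% of their level in the other kept cells in Setdb1_cKO and 38.2% in control. Since the cells were chosen by their own counts, these values describe the choice and test nothing.

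The rule's own genes are given as a description. Eomes had 323 CPM (the gene's UMIs scaled to a common total per library) in Setdb1_cKO and 545 CPM in control, with medians of 3 and 5 UMIs per cell. Mki67 had 648 and 534 CPM and Top2a 1208 and 1064 CPM in Setdb1_cKO and control cells. Cells with exactly 2 UMIs of Mki67 and Top2a, just inside the limit, numbered 33 in Setdb1_cKO and 90 in control, and their G2/M list stood at 8286 and 7829 CPM. Cells with 1 such UMI, just outside, numbered 75 and 176, and their G2/M list stood at 5926 and 5907 CPM. At the Eomes limit, the 63 Setdb1_cKO and 91 control cells with 1 Eomes UMI had 4029 and 6257 CPM of radial glia genes, against 9198 and 12347 CPM in the 449 and 692 cycling cells with no Eomes UMI.

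Cycling Eomes cells made up 3.00% of kept cells (2.68 to 3.36) in Setdb1_cKO and 5.52% (5.11 to 5.95) in control. Among all cells with Eomes they made up 25.9% (23.4 to 28.5) in Setdb1_cKO and 27.8% (26.0 to 29.7) in control, and the intervals overlapped. Among all cells with at least 2 UMIs of Mki67 and Top2a they made up 32.3% (29.3 to 35.4) in Setdb1_cKO and 38.6% (36.2 to 41.0) in control. The Setdb1_cKO cells were deeper, with medians of 11493 UMIs and 3690 genes, against 9736 UMIs and 3386.5 genes in control. When every kept cell was first thinned to 3000 UMIs, the rule found 1.51% of cells in Setdb1_cKO and 3.61% in control. All these shares rest on the measured values that define the cells.

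The libraries as a whole held 12060 barcodes in Setdb1_cKO and 14397 in control, and 68 barcodes occurred in both, none of them a cycling Eomes cell in both. They differed in sex: Xist, which silences an X chromosome in female cells, had 5265 UMIs in the Setdb1_cKO cells and 1 in the control cells, and the Y-linked Ddx3y had 0 and 419, so genotype and sex cannot be told apart. Of the 6 sex-linked genes listed, 2 were at least 2-fold higher and 4 lower, and their sum had a ratio of 11.3 (10.6 to 12.2), or 0.933 (0.833 to 1.04) without Xist. Scrublet, a doublet caller, marked 28 of the 299 Setdb1_cKO cells (9.36%) and 62 of the 630 control cells (9.84%), and these were kept. Markers of other cell types (Cajal-Retzius, oligodendrocyte, GABAergic, endothelial and mural, microglia and fibroblast lists together, without erythroid and pyramidal genes) reached 2 or more UMIs in 153 Setdb1_cKO and 236 control cells. Endothelial and mural genes stood at 25.3 CPM in Setdb1_cKO and 406 CPM in control, with Flt1 and Kcnj8 at 0 in Setdb1_cKO and all 10 detected in control. A single control cell held 889 of the 2712 control UMIs of this list.

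Over the 929 cells, 11474 genes outside the rule had at least 30 UMIs. With levels scaled to CPM per library, 254 of them (2.21%) were at least 2-fold higher in Setdb1_cKO than in control and 468 (4.08%) at least 2-fold lower. At 1.5-fold, the limit used for gene lists, 641 (5.59%) were higher and 1184 (10.3%) lower, and the median log2 ratio was -0.03. These percentages are the background against which each list is read. Of the 28 genes ranked farthest apart by the interval's bound nearest to no difference, some were tied to sex. These were Xist and Tsix among the higher ones and Ddx3y and Eif2s3y among the lower ones. The higher ones also included 5 germline genes (Mnd1, Tcfl5, Meioc, Ddx4 and Tuba3a), from a list with 10 of the 11474 measured genes. The lower ones also included the vascular genes Cldn5, Flt1, Kdr, Cd93 and Rgs5.

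**Figure D1:**
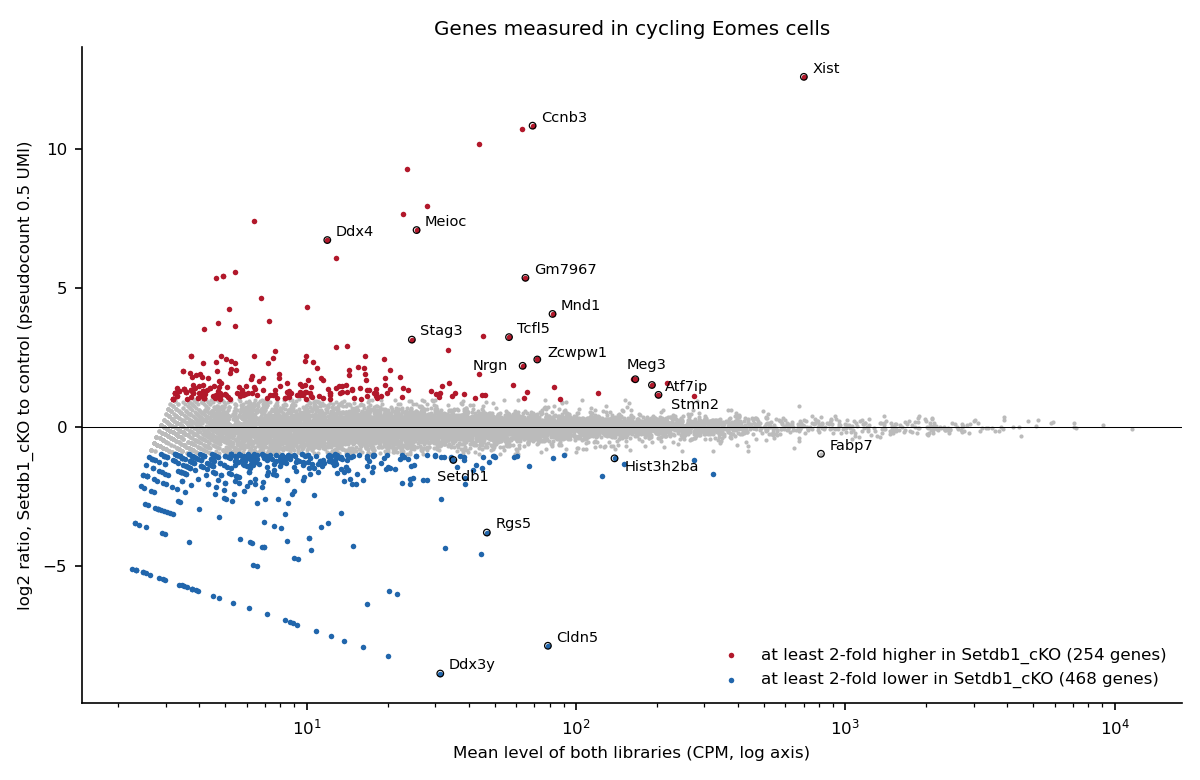
Log2 ratio of Setdb1_cKO to control (vertical axis, pseudocount 0.5 UMI) against the mean level of both libraries (horizontal axis, CPM, log scale) for the 11474 genes measured in cycling Eomes cells. Red points are the 254 genes at least 2-fold higher and blue points the 468 genes at least 2-fold lower in Setdb1_cKO; germline genes such as Mnd1 and Tcfl5 lie far above the line and Setdb1 lies below it.

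Setdb1 itself (ENSMUSG00000015697, chromosome 3, 95323525 to 95357202, reverse strand, GRCm38) had 80 UMIs or 21.3 CPM in Setdb1_cKO cells and 326 UMIs or 48.8 CPM in control cells. The ratio was 0.437 (0.338 to 0.560). It was 0.431 in cells in S state and 0.470 in cells in G2/M state, and 0.427 (0.330 to 0.549) in cycling radial glia and 0.504 (0.410 to 0.617) in non-cycling Eomes cells of the same libraries. UMIs come from the 3' end of the RNA, so counts from outside the deleted exons would not show the deletion, and what is left does not measure how many cells kept the gene.

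Germline genes were the list with the highest ratio among those not tied to sex. Summed over 44 listed genes, they had 673 CPM in Setdb1_cKO (2524 UMIs) and 143 CPM in control (952 UMIs), a ratio of 4.72 (4.38 to 5.09) with a median log2 ratio of 3.19 over measured members, and without Mnd1, the member of highest level, 3.89 (3.59 to 4.21). Of the 10 members measured, 8 were at least 2-fold higher and none was at least 1.5-fold lower, against 2.21% of all genes at least 2-fold higher. The other 34 members had under 30 UMIs, and 15 of the 44 had no UMI in Setdb1_cKO cells and 25 none in control cells. The list was chosen with earlier results of these libraries known, so its direction is a description.

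Several of the higher genes encode proteins of meiosis. Mnd1 (ENSMUSG00000033752, chromosome 3, 84087933 to 84155786, reverse strand), a partner of the recombinases in the pairing of homologous chromosomes, had 580 UMIs (155 CPM) in Setdb1_cKO and 61 UMIs (9.13 CPM) in control, a ratio of 16.9 (13.0 to 22.4). Stag3, a cohesin subunit of meiotic chromosomes, had 44.3 and 4.94 CPM in Setdb1_cKO and control cells, a ratio of 8.96 (6.14 to 13.4). Meioc, which keeps germ cells in meiotic prophase, had 191 UMIs in Setdb1_cKO and 2 in control, a ratio of 170 (46.4 to 1415). Zcwpw1, a reader of histone marks at recombination sites, had 121 and 22.5 CPM, a ratio of 5.4 (4.48 to 6.54). Tex15, of the germline silencing of transposons, had 25 and 13 UMIs, a ratio of 3.43 (1.69 to 7.29).

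The germ cell RNA helicase Ddx4 had 89 UMIs in Setdb1_cKO and 1 in control, a ratio of 159 (27.7 to 6331). Tcfl5, a helix-loop-helix factor of the testis, had 102 and 10.8 CPM, a ratio of 9.47 (7.35 to 12.4). The testis tubulin Tuba3a had 177 UMIs in Setdb1_cKO and 0 in control. That is 105-fold higher when control is set to 3 UMIs in all its cells together, with a lower interval bound of 84.6. Near-identical tubulin genes can match the same reads. Ddx25 and Tdrkh stayed within 1.5-fold, at 0.777 and 0.993. Outside the list, the cyclin of meiotic cells Ccnb3 (on the X chromosome) had 518 UMIs in Setdb1_cKO and 0 in control. That is 308-fold higher with control set to 3 UMIs, with a lower interval bound of 249. Rnf17, of germ cell granules, had 95 and 2 UMIs, a ratio of 84.6 (22.8 to 709). Among transcripts without a named product, Gm49795 had 328 and 0 UMIs, Gm7967 476 and 20, 2310043L19Rik 209 and 1, and Gm48619 170 and 1 in Setdb1_cKO and control cells. 3222401L13Rik, also without a named product, had 307 and 56 UMIs, a ratio of 9.76 (7.32 to 13.2).

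Germline UMIs were spread over the cells. With each cell thinned to 4000 UMIs, which left out 2 Setdb1_cKO and 11 control cells below that depth, 91.2% (87.4 to 94.2) of Setdb1_cKO cells and 42.0% (38.1 to 46.0) of control cells had at least 1 UMI of the list, with medians of 3 and 0 and highest values of 9 and 4. In vascular cells of the same libraries, with UMIs of at least 3 of Cldn5, Pecam1, Flt1 and Cdh5 and none of Eomes, Mki67 and Top2a, the shares were 14.3% of 42 Setdb1_cKO cells and 11.3% of 97 control cells. Median depths before thinning were 11506 and 9876 UMIs in cycling Eomes cells and 14576 and 12732 in vascular cells. Mnd1 was seen in 42.1% of Setdb1_cKO and 3.88% of control cells, against 9.52% and 1.03% of vascular cells. Ccnb3 was seen in 32.7% of Setdb1_cKO cells and in 0 of 619 control cells, which allows up to 0.594% of cells with a UMI at this depth (exact interval) and does not limit the share of cells expressing the gene, and in 2.38% and 0 of vascular cells. The Setdb1_cKO cell with most germline UMIs held 1.03% of them, so no single cell carried the difference.

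The annotated promoters of these genes are shown because germline genes were, apart from the sex-linked genes, the list with the highest ratio. In the RefSeq table (assembly GRCm38.p6, windows of 300 bases around the start site) 7 of the 8 higher members have an entry. Each window was searched on both strands for TCCCGC, a core of E2F-type sites, and CACGTG, an E-box. In the windows below capitals mark TCCCGC or its reverse complement and, for Ddx4, also CACGTG, and each runs 5′ to 3′ on the gene's strand. Mnd1 lies at chr3:84155737-84156036, reverse strand, Meioc at chr11:102665335-102665634, forward strand, Ddx4 at chr13:112652261-112652560, reverse strand, and Tuba3a at chr6:125286032-125286331, reverse strand.
Mnd1: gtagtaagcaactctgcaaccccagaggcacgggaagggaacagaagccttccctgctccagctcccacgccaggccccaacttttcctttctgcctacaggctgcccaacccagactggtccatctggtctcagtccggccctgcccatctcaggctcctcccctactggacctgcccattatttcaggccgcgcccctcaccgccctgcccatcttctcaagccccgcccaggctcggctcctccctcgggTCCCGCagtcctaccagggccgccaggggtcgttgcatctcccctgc
Meioc: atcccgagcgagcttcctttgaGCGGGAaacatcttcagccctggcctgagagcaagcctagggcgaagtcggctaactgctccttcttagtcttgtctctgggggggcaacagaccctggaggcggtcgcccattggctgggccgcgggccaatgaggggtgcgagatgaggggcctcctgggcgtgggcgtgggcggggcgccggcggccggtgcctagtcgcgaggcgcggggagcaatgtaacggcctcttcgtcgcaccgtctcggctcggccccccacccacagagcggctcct
Ddx4: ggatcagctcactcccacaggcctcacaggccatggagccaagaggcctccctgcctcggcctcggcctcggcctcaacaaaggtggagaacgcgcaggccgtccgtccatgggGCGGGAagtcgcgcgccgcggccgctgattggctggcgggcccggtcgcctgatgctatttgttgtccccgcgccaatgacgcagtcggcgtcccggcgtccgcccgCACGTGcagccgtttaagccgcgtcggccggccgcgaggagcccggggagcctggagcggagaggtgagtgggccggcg
Tuba3a: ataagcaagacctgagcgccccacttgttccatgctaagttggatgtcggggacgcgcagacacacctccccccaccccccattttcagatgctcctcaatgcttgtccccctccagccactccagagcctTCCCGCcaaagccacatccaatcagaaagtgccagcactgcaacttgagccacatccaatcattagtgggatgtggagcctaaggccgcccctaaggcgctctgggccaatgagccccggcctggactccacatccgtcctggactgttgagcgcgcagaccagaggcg
TCCCGC was found in a window of 6 of the 7 genes (85.7%), all but Zcwpw1, against 42.2% of the 8986 measured genes with an entry. Among all genes at least 2-fold higher in Setdb1_cKO, it was in 52 of the 163 with an entry (31.9%). Counted per window and not per gene, it was in 20% of all 32841 promoters of the table. CACGTG was found in 2 of 7, Ddx4 and Stag3, against 11.9% and 7.15%. The promoter of Ddx25, which was not higher, holds both motifs too. A match says that the letters are in the window, not that a factor binds there.

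Genes that work with Setdb1 or on the same mark stood at 2578 CPM in Setdb1_cKO and 2150 CPM in control, a ratio of 1.20 (1.17 to 1.23). At 1.5-fold 2 of 25 measured members were higher and 1 lower, against 5.59% and 10.3% of all genes. Atf7ip, the partner that protects the SETDB1 protein and takes it into the nucleus, had 1064 UMIs (284 CPM) in Setdb1_cKO and 664 UMIs (99.4 CPM) in control, a ratio of 2.85 (2.59 to 3.15). Tasor, the scaffold of the HUSH silencing complex, had 86.9 and 41.8 CPM, a ratio of 2.08 (1.77 to 2.45). Other HUSH genes were closer to 1, with Mphosph8 at 0.993, Pphln1 at 1.38 and Morc2a at 1.32. Trim28, which brings SETDB1 to zinc finger proteins, was at 0.952, and the other H3K9 methyltransferases ranged from 0.866 for Setdb2 to 1.21 for Suv39h2. Dnmt3b, a DNA methyltransferase, was at 0.662, resting on 13 and 35 UMIs with an interval (0.321 to 1.28) that includes 1.

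Clustered protocadherins, adhesion proteins that give neurons their surface identity, had 306 CPM in Setdb1_cKO and 121 CPM in control, a ratio of 2.52 (2.30 to 2.76). At 1.5-fold 19 of the 24 measured members were higher and 1 lower, against 5.59% and 10.3% of all genes, and the median log2 ratio was 1.69. Pcdhga12 had 123 UMIs in Setdb1_cKO and 40 in control, a ratio of 5.48 (3.81 to 8.03), Pcdhgb5 64 and 19 UMIs, a ratio of 6 (3.55 to 10.6), and Pcdhga7 87 and 37, a ratio of 4.19 (2.82 to 6.33). Their transcripts share 3' exons within the gamma cluster, and reads in those exons do not tell members apart. The list ratio was 2.02 in non-cycling Eomes cells and 1.32 in cycling radial glia of the same libraries, and the difference between these sets was not tested.

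Imprinted genes were at 1.20 (1.17 to 1.23) as a list. At 1.5-fold 4 of 23 measured members were higher and 2 lower, against 5.59% and 10.3% of all genes. Meg3, the noncoding RNA of the Dlk1 locus, had 956 UMIs in Setdb1_cKO and 517 in control, a ratio of 3.29 (2.96 to 3.67), and 1 control cell held 30.6% of the control UMIs (4.35 without the top cell of each library). Rian, from the same locus, was at 3.79 (2.65 to 5.51), and Mest, from another imprinted locus, at 0.638 (0.506 to 0.799). Cdkn1c, an imprinted inhibitor of cyclin-dependent kinases, had 49.6 CPM in Setdb1_cKO and 21.3 CPM in control, a ratio of 2.33 (1.87 to 2.92).

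Transcription factors of the granule lineage differed little as a list that leaves out Eomes. Eomes, a gene of the rule, had 323 CPM in Setdb1_cKO and 545 CPM in control. The 24 genes of the Eomes cascade and proneural list had 13686 CPM in Setdb1_cKO and 14305 CPM in control, a ratio of 0.957 (0.946 to 0.967). Without Zbtb20, the member of highest level, the ratio was 0.973. At 1.5-fold 2 of 23 measured members were higher and 2 lower, against 5.59% and 10.3% of all genes, and the median log2 ratio was -0.04. The early factors Insm1 and Neurog2 were at 1.23 (1.12 to 1.34) and 0.782 (0.713 to 0.856). Neurod1, Prox1 and Sox11, factors of the neuroblast step, were at 0.920, 0.942 and 0.974. Tbr1, which follows Eomes in cortical lineages, had 27.5 CPM in Setdb1_cKO and 49.1 CPM in control, a ratio of 0.559 (0.444 to 0.700), and Sox5 42.4 and 69.0 CPM, a ratio of 0.614 (0.510 to 0.737). The pyramidal lineage factor Neurod6 had 50.1 and 26.1 CPM, a ratio of 1.92 (1.56 to 2.38), and Nhlh2, a helix-loop-helix factor also of Cajal-Retzius cells, was at 1.52 (1.11 to 2.06), which turned to below 1 without cells of other types. Nhlh2 is itself on the Cajal-Retzius list by which such cells were left out, so that turn was partly fixed by the choice of cells.

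**Figure D2:**
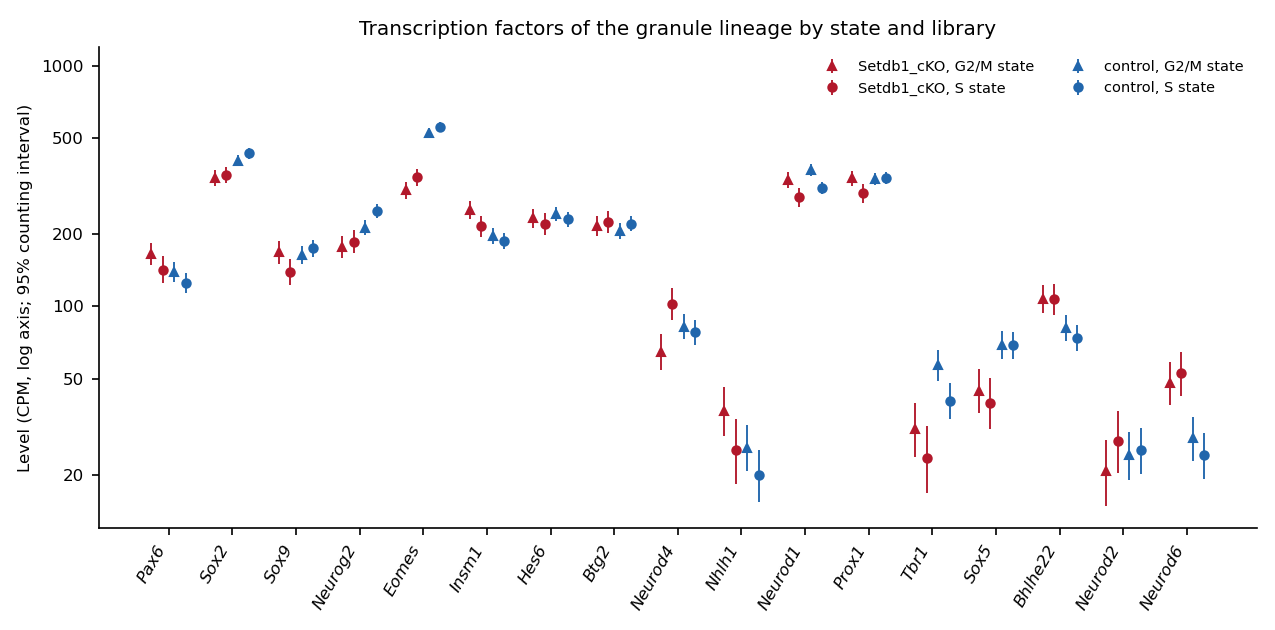
Levels (CPM, log axis, 95% counting intervals) of 17 transcription factors of the granule lineage in the G2/M state (triangles) and S state (circles) of Setdb1_cKO (red) and control (blue) cycling Eomes cells. In both states Neurod6 was higher and Tbr1 and Sox5 were lower in Setdb1_cKO than in control.

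Genes of early neuroblasts, the cells that intermediate progenitors become, stood at 15541 CPM in Setdb1_cKO and 15243 CPM in control, a ratio of 1.02 (1.01 to 1.03). Of the 25 measured members, 7 were at least 1.5-fold higher and none lower, against 5.59% and 10.3% of all genes, and the median log2 ratio was 0.08. Stmn2, a microtubule regulator of growing neurites, had 280 CPM in Setdb1_cKO and 125 CPM in control, a ratio of 2.23 (2.03 to 2.44). Tubb3, neuronal tubulin, was at 1.92 (1.78 to 2.07), Mapt, the tau protein, at 1.97 (1.77 to 2.18), and Gap43, of growth cones, at 1.87 (1.64 to 2.14). Map1b was at 1.52, Snap25 at 1.72 and Cntn2 at 2.43, while the genes with the highest levels, Stmn1 and Igfbpl1, were at 1.03 and 0.864. Stmn2 and Cntn2 turned to below 1 when cells were chosen at equal depth, and Gap43 when doublets were left out. The marker Dcx, seen in 260 Setdb1_cKO and 509 control cells, was at 1.06 (0.979 to 1.14).

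Lists of other neurons differed too. Pyramidal and mossy neuron genes stood at 1.29 (1.21 to 1.38). At 1.5-fold 5 of 10 measured members were higher and 1 lower, against 5.59% and 10.3% of all genes. The calmodulin-binding protein Nrgn had 391 UMIs (104 CPM) in Setdb1_cKO and 151 UMIs (22.6 CPM) in control, a ratio of 4.61 (3.81 to 5.60), and came from 61 and 89 cells. Crym was at 3.23 (2.06 to 5.14), Meis2 at 2.20 (1.5 to 3.25) and Mpped1 at 0.354 (0.246 to 0.5). GABAergic genes had 65.3 CPM in Setdb1_cKO and 45.5 CPM in control, a ratio of 1.44 (1.21 to 1.70), and Cajal-Retzius genes 42.1 and 25.6 CPM, a ratio of 1.65 (1.32 to 2.06), with their defining markers Lhx5 and Trp73 at 1 to 3 UMIs in either library. Only 2 of 12 GABAergic and 2 of 10 Cajal-Retzius genes were measured. In the other kept cells pyramidal and mossy genes had 1452 CPM in Setdb1_cKO and 1038 CPM in control. GABAergic genes had 90.2 and 59.0 CPM there, and Cajal-Retzius genes 431 and 438 CPM. In cycling Eomes cells these lists of other neurons were higher beside a neuroblast list ratio of 1.02. Their part in the values of the neuroblast genes above was not tested.

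Radial glia genes, of the stage before Eomes, were lower in Setdb1_cKO. The list had 2919 CPM in Setdb1_cKO and 4009 CPM in control, a ratio of 0.728 (0.712 to 0.744), and 12 of 22 measured members were at least 1.5-fold lower and none higher, against 10.3% of all genes lower, with a median log2 ratio of -0.63. Fabp7, a fatty acid binding protein of radial glia, had 550 CPM in Setdb1_cKO and 1075 CPM in control, a ratio of 0.512 (0.488 to 0.538), and without it the list stood at 0.807. Vim was at 0.545 (0.510 to 0.582), the glutamate transporter Slc1a3 at 0.638 (0.596 to 0.682), and the extracellular protein Tnc at 0.376 (0.271 to 0.512). Mfge8, Ttyh1 and Aldoc were at 0.515, 0.498 and 0.539, and the stem cell filament Nes at 0.652. The effector of Notch Hes5 (1.26, 1.19 to 1.34) and the quiescence marker Hopx (1.43, 1.26 to 1.63) were higher in Setdb1_cKO. The list ratio was 0.709 in non-cycling Eomes cells and 0.767 in cycling radial glia of the same libraries. In all kept cells other than cycling Eomes cells the list was lower too, with 7563 CPM in Setdb1_cKO and 10487 CPM in control. The difference was therefore not particular to cycling Eomes cells.

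Notch genes stood at 1.08 (1.04 to 1.13), and at 0.924 (0.869 to 0.982) without Hes5. At 1.5-fold 5 of the 16 measured members were lower and none higher, against 10.3% and 5.59% of all genes. Hes1, a repressor that Notch switches on, was at 0.380 (0.238 to 0.583) on 26 and 122 UMIs, the receptor Notch2 at 0.507 (0.342 to 0.735) and Hey1 at 0.627 (0.403 to 0.955). Gadd45g, a stress-inducible gene of neurogenic progenitors, had 229 CPM in Setdb1_cKO and 415 CPM in control, a ratio of 0.552 (0.510 to 0.596).

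The machinery of division was close to equal between the libraries. All cells of both libraries were chosen by UMIs of Mki67 and Top2a, so this closeness was partly built in and is a description. S phase genes had 4952 CPM in Setdb1_cKO and 5095 CPM in control, a ratio of 0.972 (0.955 to 0.989), and 0 of 43 members were past 1.5-fold. G2/M genes had 17318 and 16351 CPM, a ratio of 1.06 (1.05 to 1.07), and 1.004 without Hmgb2, the highest member, with only Cdc25c past 1.5-fold (0.632, 0.526 to 0.756). Cohesin, condensin and kinetochore genes were at 1.07, mitotic spindle genes at 0.989 and the G1 list at 0.859 (0.839 to 0.880). In the G1 list Ccnd2, a cyclin of progenitors, had 976 CPM in Setdb1_cKO and 1267 CPM in control, a ratio of 0.770 (0.740 to 0.800), Cdk4 was at 0.885 and E2f2, a factor of S phase entry, at 0.534 (0.369 to 0.759). The S phase ratio reversed to just above 1 when doublets were left out and when both libraries were given the same mix of states.

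Histone genes were at 1.02 as a list. At 1.5-fold 1 of 62 measured members was higher and 9 were lower, against 5.59% and 10.3% of all genes. Hist3h2ba had 87.2 CPM in Setdb1_cKO and 191 CPM in control, a ratio of 0.456 (0.403 to 0.516), Hist3h2a was at 0.386 (0.303 to 0.486) and Hist1h2ac at 0.346 (0.241 to 0.485). DNA damage genes were at 0.891 (0.866 to 0.917) as a sum, but their median log2 ratio was 0.05. Of their 29 measured members 1 was lower at 1.5-fold and none higher. The p53 targets were at 0.941 (0.895 to 0.990) with no member past 1.5-fold. Apoptosis genes were at 1.0 (0.962 to 1.04), interferon genes at 0.909 (0.792 to 1.04) and unfolded protein genes at 0.992. Of MHC class I genes H2-K1 was at 0.241 (0.111 to 0.468) and H2-D1 at 0.601 (0.430 to 0.829), and the list at 0.638 (0.552 to 0.736). Immediate early and heat shock genes, which dissociation can raise, were at 0.909, with Fos at 0.608, Jun at 0.560, Ier2 at 0.623 and Junb at 0.609 (above 1 without cells of other types). Cholesterol synthesis genes were at 0.919, ribosomal protein genes at 1.01 and mitochondrial genes at 1.09.

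In several lists of other cell types 1 cell held a large share of the UMIs. Endothelial and mural genes stood at 0.0624 (0.0503 to 0.0766) and all 10 measured members were at least 2-fold lower, against 4.08% of all genes. Cldn5, of tight junctions, had 2 UMIs in 2 Setdb1_cKO cells and 1048 UMIs in 17 control cells. Erythroid genes were at 0.291, and at 0.0281 without the top cell of each library, and microglia genes at 0.881, and at 0.322 without them. Fibroblast genes were at 1.94, and at 1.15 (0.957 to 1.37) without them, and oligodendrocyte genes, seen in 98 Setdb1_cKO and 167 control cells, at 0.921 (0.752 to 1.12). Without cells that held 2 or more UMIs of other types, which left 146 Setdb1_cKO and 394 control cells, 155 genes were at least 2-fold higher and 282 lower, and the germline list ratio was 2.24 on the log2 scale, against 2.24 in all cells.

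**Figure D3:**
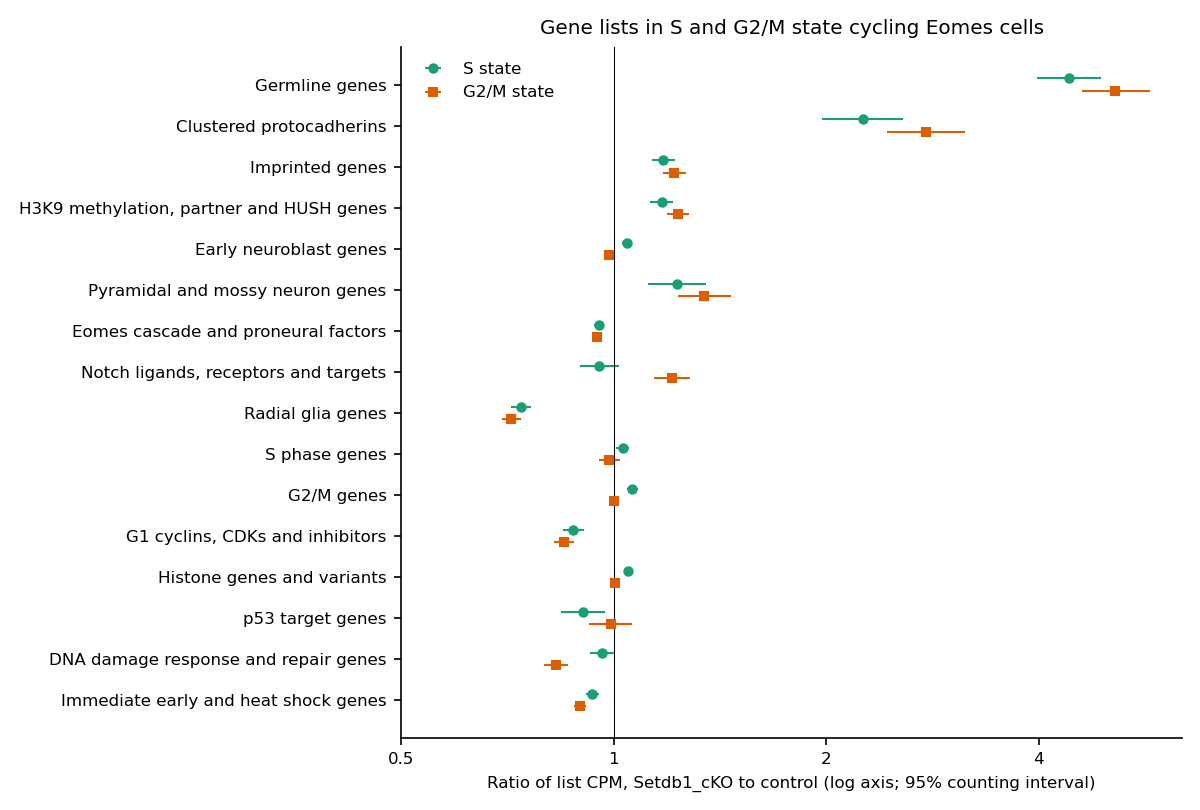
Ratio of list levels, Setdb1_cKO to control (log axis, 95% counting intervals), in cycling Eomes cells in S state (circles) and G2/M state (squares) for 16 gene lists. Germline genes stood at 4.41 in S state and 5.14 in G2/M state, protocadherins at 2.25 and 2.77, and radial glia genes at 0.740 and 0.716.

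To split the cells by state, each was thinned to 4000 UMIs, and its S and G2/M list UMIs were each divided by the median over all cells, 18 and 60 UMIs (0.5 added to all). A cell with the larger S value was put in S state and the others in G2/M state. Every cell was placed, also those with few UMIs of either list. Because the limit was set at the medians of these same cells, it largely fixed the S state share over both libraries together. That share does not measure how many cells were in S phase. In Setdb1_cKO 141 of 297 cells (47.5%, 41.7 to 53.3) were in S state, against 327 of 619 (52.8%, 48.8 to 56.8) in control, and the intervals overlapped. Within 0.32 of the limit on the log2 scale lay 39 Setdb1_cKO and 60 control cells. By scanpy's phase scores S phase held 27.6% of Setdb1_cKO and 28.9% of control cells. The states came from the same RNA as the values below, and ambient RNA can enter both, so the split is a description.

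**Figure D4:**
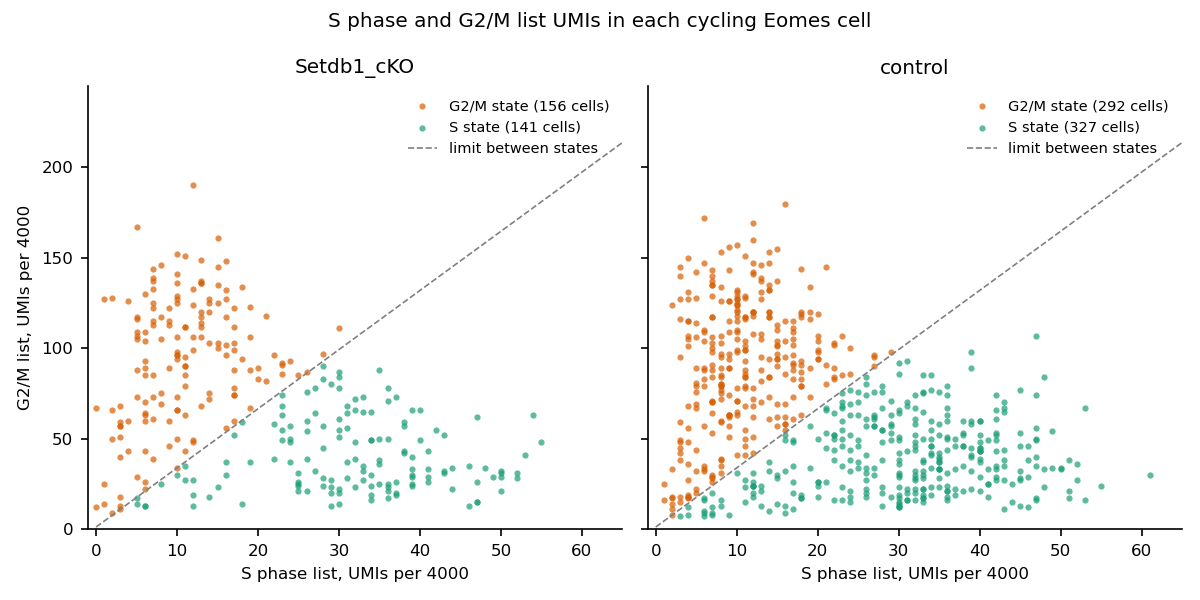
S phase list UMIs (horizontal axis) against G2/M list UMIs (vertical axis) in each cycling Eomes cell thinned to 4000 UMIs, Setdb1_cKO left and control right. Orange cells are in G2/M state and green cells in S state, and the dashed line is the limit; the median G2/M list count was 96 UMIs in G2/M state and 35 in S state in Setdb1_cKO, and 94 and 37 in control.

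Outside both lists, 65 of 8953 genes (0.726%) were at least 2-fold higher in G2/M state in both libraries, 143 (1.6%) at least 2-fold higher in S state, and 4 opposite in the libraries. Among those higher in G2/M were Ccnb1, the mitotic cyclin, at a G2/M to S ratio of 6.61 (5.4 to 8.15) in Setdb1_cKO and 6.71 (5.83 to 7.76) in control, Tuba1c at 13.2 and 29.0, Arl6ip1 at 3.98 and 4.42, the nuclear import factor Kpna2 at 5.26 and 4.74, the spindle protein Aspm at 5.70 and 4.19, Cdc25b at 7.96 and 4.45 and Cdkn3 at 6.47 and 6.57. Higher in S state were the origin licensing factor Cdt1, at 0.0632 in Setdb1_cKO and 0.0703 in control, the DNA ligase Lig1 at 0.200 and 0.247, the cyclin Ccne1 at 0.114 and 0.172, E2f2 at 0.0881 and 0.132, Mcm3 at 0.198 and 0.236, and Tcf19 at 0.101 and 0.165. The first 10 in each direction also included Pif1, Fam83d and Cep89 in G2/M, and Slfn9, Zfp367, Donson and Fam111a in S.

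Lists of the lineage differed little between states. No member was 2-fold apart in both libraries among 23 measured genes of the Eomes cascade, 25 of early neuroblasts and 20 of radial glia, and the G2/M to S ratios of these lists were 1.11, 1.15 and 1.01 in Setdb1_cKO and 1.12, 1.22 and 1.05 in control. Single genes are given as values. Ccnd1, a cyclin of G1, was lower in G2/M in both libraries, with G2/M to S ratios of 0.477 (0.343 to 0.660) in Setdb1_cKO and 0.419 (0.331 to 0.527) in control. Neurod4 was lower in G2/M in Setdb1_cKO, at 0.632 (0.5 to 0.796), and not in control, at 1.06 (0.890 to 1.26). Fabp7 was at 0.916 (0.839 to 0.999) in Setdb1_cKO and 1.36 (1.30 to 1.43) in control, and Stmn2 at 1.32 (1.16 to 1.49) and 0.926 (0.806 to 1.06). The difference between libraries in these state ratios has no replicate and was not tested. The germline list was at 0.961 (0.888 to 1.04) in Setdb1_cKO and 0.825 (0.724 to 0.940) in control.

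The promoters of mitotic genes are shown for a known element of G2/M genes. The search was on both strands for TTTGAA, the cell cycle homology region, and for CCAAT, the box of factor NFY. Capitals mark TTTGAA or CCAAT and their reverse complements in the windows of Ccnb2, a mitotic cyclin (chr9:70421505-70421804, reverse strand), and Cenpa, a centromeric histone (chr5:30666636-30666935, forward strand).
Ccnb2: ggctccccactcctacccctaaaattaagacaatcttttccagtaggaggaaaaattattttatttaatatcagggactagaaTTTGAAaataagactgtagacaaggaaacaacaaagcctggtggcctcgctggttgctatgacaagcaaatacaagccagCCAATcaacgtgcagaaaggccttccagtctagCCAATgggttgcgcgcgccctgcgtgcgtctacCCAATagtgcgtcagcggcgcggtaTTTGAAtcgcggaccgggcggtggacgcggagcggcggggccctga
Cenpa: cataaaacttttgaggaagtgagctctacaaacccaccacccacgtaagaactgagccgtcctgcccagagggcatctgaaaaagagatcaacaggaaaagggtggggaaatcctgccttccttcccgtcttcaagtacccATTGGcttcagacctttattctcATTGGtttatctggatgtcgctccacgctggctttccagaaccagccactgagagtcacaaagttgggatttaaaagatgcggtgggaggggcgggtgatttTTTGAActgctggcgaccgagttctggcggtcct
TTTGAA was found in a window of 31 of 45 genes of the G2/M list with an entry (68.9%) and 6 of 31 of the S phase list (19.4%). It was in 13.8% of measured genes and, counted per window, in 17.9% of all promoters. CCAAT was found in 75.6% and 71.0%, against 43.8% and 37.4%. Of the first 10 G2/M state genes 9 had an entry, with CCAAT found in all and TTTGAA in 5. TCCCGC was found in 9 of the first 10 S state genes. A match is a description of the window.

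The ratios in cycling Eomes cells were set beside those of 780 Setdb1_cKO and 1459 control non-cycling Eomes cells, with no UMI of Mki67 or Top2a, and of 333 and 537 cycling radial glia, with no Eomes UMI, at least 2 UMIs of Mki67 and Top2a and at least 3 of 7 radial glia markers. The limits on Reln and Olig2 were the same. The 3 sets come from the same 2 libraries, so their ratios are not independent and are given side by side. Mnd1 was at 16.9 in cycling Eomes cells, 43.2 (32.1 to 59.6) in non-cycling Eomes cells and 6.89 (5.60 to 8.53) in cycling radial glia, from levels of 155, 203 and 137 CPM in Setdb1_cKO and 9.13, 4.70 and 19.9 CPM in control. The germline list was at 4.72, 4.45 and 4.93. Among neuronal genes, Tubb3 was at 1.92, 1.05 and 1.10, Mapt at 1.97, 1.16 and 0.965, and Neurod6 at 1.92, 1.12 and 0.857. Gadd45g was at 0.552, 0.397 and 1.17, and Insm1 at 1.23, 1.69 and 3.22. Fos was at 0.608, 0.645 and 1.08. The differences between sets were not tested.

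**Figure D5:**
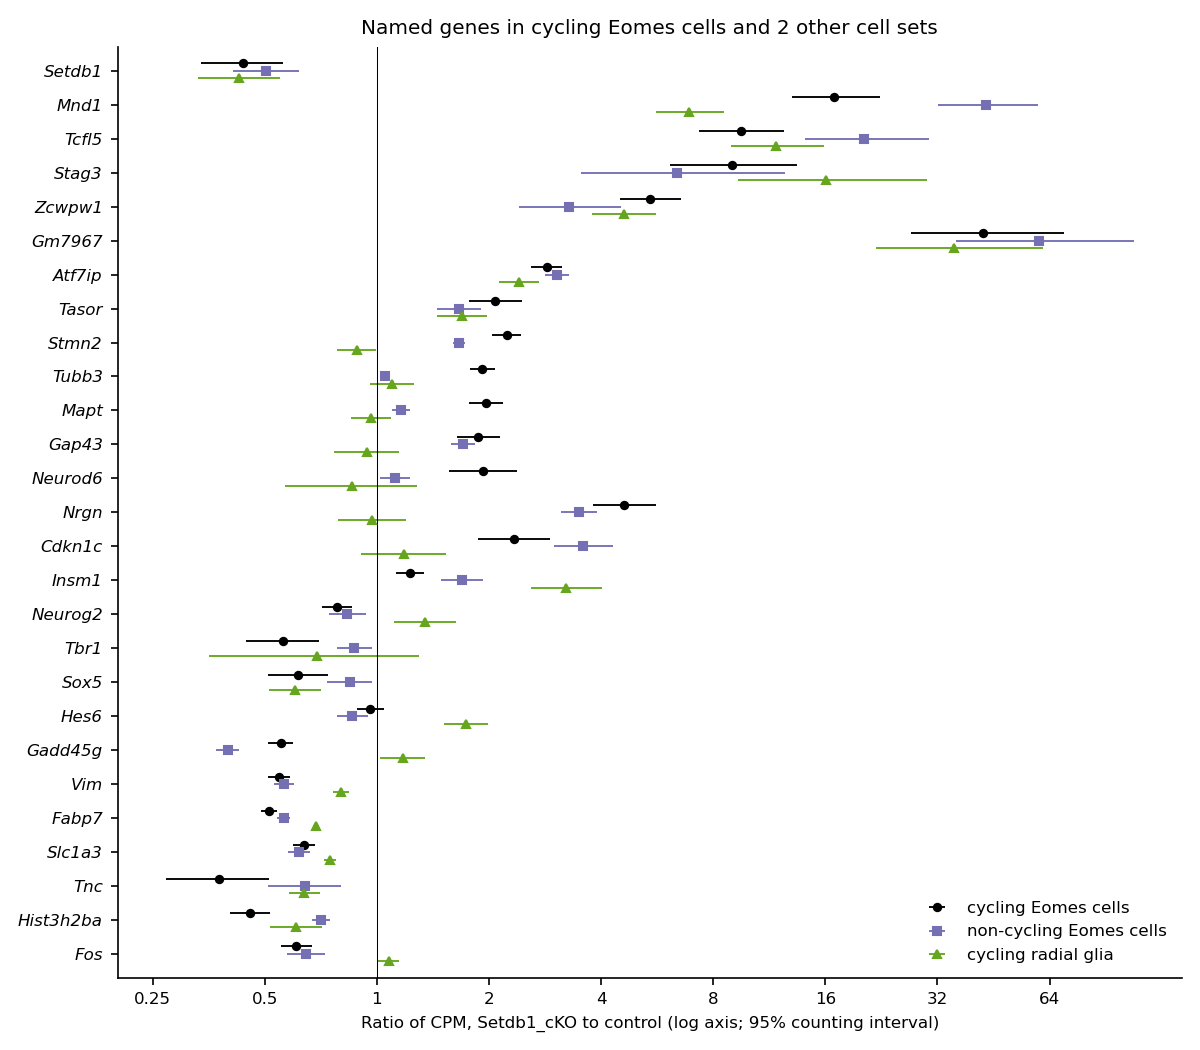
Ratio of CPM, Setdb1_cKO to control (log axis, 95% counting intervals), for 27 named genes in cycling Eomes cells (black circles), non-cycling Eomes cells (purple squares) and cycling radial glia (green triangles). Setdb1 was at 0.437, 0.504 and 0.427, and Tubb3 at 1.92, 1.05 and 1.10, in the 3 sets.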

How the data were processed

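Dentate gyrus cells of postnatal day 5 were sequenced as 1 Setdb1_cKO and 1 control library. The files hold raw UMI counts per gene and barcode, deposited by the authors from Cell Ranger 7.1.0, per the file headers, with genome build mm10 and Seurat named in the submitters' processing notes; the annotation release and the handling of intronic reads are not stated there. The authors' cell types were not used here. Of 32285 gene IDs, 32235 matched GENCODE annotation, which gave positions.

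Counts were summed over cycling Eomes cells per library and scaled to CPM of all their UMIs. Ratios of Setdb1_cKO to control have 95% intervals from the exact conditional Poisson method, and shares from the Clopper-Pearson method. A gene was measured with at least 30 UMIs in both libraries together, log2 ratios add 0.5 UMI, and a count of 0 was set to a floor of 3 counts over the group where a fold is given. Doublets were called by Scrublet (expected rate 8%) and kept. Cells were thinned to 4000 UMIs for states and per-cell shares and to 3000 for the rule at equal depth. The scripts were tested on simulated data. Python 3.11.15 was used with numpy 2.4.6, scipy 1.17.1, pandas 2.3.3, scanpy 1.11.5 and matplotlib 3.10.9.

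Members and all 33 lists were chosen with earlier results of these data known. Named genes were Setdb1, the rule's genes, the 14 highest and 14 lowest genes with at least 20 CPM by the interval bound nearest to 1, at most 8 members per list past 1.5-fold with an interval leaving out 1, the 3 members of highest level in 6 lists of lineage and cycle, the 10 genes farthest apart between states each way, and measured germline, H3K9 and Eomes cascade genes. Alternatives were stricter and looser cell filters, a stricter rule, the rule at equal depth, leaving out doublets or cells of other types, other totals, other minimum counts and other splits of states.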

Additional observations from a re-analysis of the deposited data

Results flagged for a closer look

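Some ratios of Setdb1_cKO to control pointed in opposite directions in different cell sets, each with an interval that left out 1, and the difference between sets was not tested. Ptgds, prostaglandin D synthase, was at 0.0469 (0.0232 to 0.0847) in cycling Eomes cells, 4.38 (3.71 to 5.17) in non-cycling Eomes cells and 1.74 (1.30 to 2.32) in cycling radial glia. A single control cell held 56.2% of the 418 control UMIs of Ptgds in cycling Eomes cells. Pdgfra was at 2.33 (1.07 to 5.21) in cycling Eomes cells and 0.493 (0.254 to 0.907) in cycling radial glia, and its ratio in cycling Eomes cells changed sign on the log2 scale under 3 alternatives, in 1 of them on 0 UMIs in Setdb1_cKO and 1 in control. Crym was at 3.23 (2.06 to 5.14) in cycling Eomes cells and 0.617 (0.435 to 0.866) in cycling radial glia. The microglia and macrophage list was at 1.68 (1.40 to 2.01) in S state and 0.284 (0.207 to 0.382) in G2/M state of cycling Eomes cells, with 212 of 277 Setdb1_cKO UMIs and 200 of 560 control UMIs in 1 cell each.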

How the results depend on the processing

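No paired analysis was possible because there is 1 library per genotype, with no replicate numbers. Of 1488 values of 124 named genes under 12 alternatives, 1306 moved by less than their counting interval, 148 moved further and 34, of 24 genes, changed sign, 6 of them with equal counts of 0 to 2 UMIs in both libraries. The Setdb1 ratio and the share of cells in S state kept their direction under every alternative run. Depth limits genes under 30 UMIs, and the causes of the changes below were not tested.

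The 254 genes at least 2-fold higher became 130 at equal depth, 155 without cells of other types, 573 and 90 with a minimum of 10 and 100 UMIs, and 79 with a minimum of 20 CPM. The 468 lower became 282 without cells of other types, and 933, 169 and 95 with those minimums. The log2 germline ratio of 2.24 was 1.96 without Mnd1. The log2 S phase ratio of -0.04 was -0.094 with a stricter cell filter, 0.0031 without doublets, -0.071 with a stricter rule, -0.0849 at equal depth, -0.085 without cells of other types and 0.011 with an equal mix of states. The log2 G2/M ratio of 0.08 was 0.15, 0.11, 0.036, 0.13, 0.013 and 0.045 under these, 0.11 with the median ratio set to 0 and 0.0057 without Hmgb2. The log2 ratio of shares of kept cells, -0.88, was -1.25 at equal depth and -1.24 without cells of other types.

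Log2 ratios that changed sign with a stricter cell filter were Col3a1 (-1.23), Col1a2 (-0.90), Col1a1 (-0.16), Dcn (-1.02), Pdgfra (-0.16) and Slc7a11 (-0.060). At equal depth they were Col3a1 (-0.55), Cntn2 (-0.56), Stmn2 (-0.050), Pdgfra (-0.68), Nap1l5 (-0.28), Grm5 (-0.66), Dcn (-0.055) and Hba-a2 (0.31). Without cells of other types they were Gad1 (-1.13), Nhlh2 (-0.58), Pdgfra, Col1a1 and Col1a2 (-0.40 each, 0 UMIs in Setdb1_cKO and 1 in control), Junb (0.10), Hbb-bt (2.41), Hbb-bs (4.97), Hba-a1 (4.87), Hba-a2 (4.39), and Flt1, Cdh5, Esam, Cspg4, Pecam1 and Ctla2a (1.19 each, equal counts, so the value is the ratio of totals alone). With each cell counted equally they were Hbb-bs (0.91), Hba-a1 (1.18) and Hba-a2 (1.09), and without doublets Gap43 (-0.051). Leaving out the cell with most UMIs of each gene or list was chosen after seeing the data. Cells of other types were chosen by UMIs of lists that hold genes such as Nhlh2, Col1a2 and Flt1. For genes of those lists, the loss of UMIs without these cells was built in.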
